A study of Homo sapiens with 4 samples.

Results

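The genes described here encode the integrins, the laminins and the collagens, measured in 2 human cancer cell lines that received either the microRNA miR-891b or a negative control RNA. They were chosen by name: every gene of the array design whose symbol is that of an integrin alpha chain, an integrin beta chain, a laminin chain or a collagen alpha chain. This gave 82 genes of the 43317 gene names on the array, namely 18 integrin alpha chains, 8 integrin beta chains, 12 laminin chains, 9 network-forming collagens, 11 fibrillar collagens and 24 other collagens. All 82 names are current RefSeq symbols. They were read by 122 probes, and for a gene with several probes the one brightest on average (mean log2 signal over the 4 arrays) was used.

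The lines were HCT116, from a colorectal carcinoma, and A549, from a lung carcinoma. In each line, cells transfected with miR-891b were compared with cells transfected with the control RNA, called NC1, and both used the lipid reagent Dharmafect1. This makes 4 groups, NC1 and miR-891b in HCT116 and NC1 and miR-891b in A549, with 1 array each, so no group has a replicate. There was no untransfected group, the time between transfection and harvest is not given in the labels, and the 2 lines were grown in different media. The study concerned extracellular vesicle release and bone metastasis, and the labels state no aim for matrix genes.

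Integrins are cell-surface receptors made of an alpha and a beta chain that grip proteins of the extracellular matrix and pass force and signals to the cytoskeleton. Laminins are three-chained, cross-shaped proteins, with an alpha, a beta and a gamma chain, that form a sheet in the basement membrane under epithelial cells. Collagens are triple helices. Collagen IV forms the network of the basement membrane, the fibrillar collagens form cables in connective tissue, and the remaining types link, anchor or span membranes.

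A microRNA acts mainly through its seed, the bases near its 5′ end that pair with messenger RNAs. The mature miR-891b is printed because the experiment added it, with its seed (bases 2 to 8) in capitals. It lies on the minus strand at chrX:146001100-146001121 of GRCh38.p14 and its sequence is RefSeq's.
hsa-miR-891b: uGCAACUUaccugagucauuga

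The reverse complement of that seed, as DNA, AAGTTGC, was searched for in the 60-base array probes on the strand each probe carries, which is the transcript's. It occurred in 1 of the 122 member probes (0.82%), against 229 of 58201 gene probes (0.393%). That probe reads LAMB1, the beta chain of laminin-511, at chr7:107564411-107564470 of hg19 on the minus strand, and the stretch around the match is printed with the match, at bases 47 to 53 of the probe, in capitals.
LAMB1 probe stretch: ataagccagaAAGTTGCtgtgtat

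A match in a probe is a description of those letters and covers only a short piece of each transcript. In HCT116 the level at this probe was 3.65 with NC1 and 3.46 with miR-891b, and in A549 it was 6.25 with NC1 and 6.97 with miR-891b. The change with miR-891b was therefore -0.18 in HCT116 and 0.71 in A549 on the log2 scale, neither of which reached 2-fold. A level here and below is the log2 processed signal minus the 75th percentile of that array, so that 0 is the signal at that percentile, and levels of different genes are not compared because probes differ in brightness.

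The 6 collagen IV genes lie in 3 head-to-head pairs, and their start regions are printed because the members of a pair are read from opposite strands of the same short stretch and their values are given side by side below. The stretches upstream of the start of COL4A2, COL4A3 and COL4A5 are those of RefSeq on GRCh38.p14, at chr13:110307158-110307283, chr2:227164374-227164623 and chrX:108439588-108439837, all on the plus strand. Capitals mark GC boxes (GGGCGG) and CCAAT boxes (CCAAT) on either strand, and a CCAAT box on the minus strand can overlap a GC box at its G bases.
COL4A2: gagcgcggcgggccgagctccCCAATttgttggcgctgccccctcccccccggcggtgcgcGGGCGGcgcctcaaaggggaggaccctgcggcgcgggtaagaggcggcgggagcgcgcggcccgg
COL4A3: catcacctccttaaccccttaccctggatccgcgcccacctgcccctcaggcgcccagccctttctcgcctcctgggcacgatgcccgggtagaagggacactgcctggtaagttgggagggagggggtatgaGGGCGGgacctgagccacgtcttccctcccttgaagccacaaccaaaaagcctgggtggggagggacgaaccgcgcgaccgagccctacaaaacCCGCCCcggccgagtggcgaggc
COL4A5: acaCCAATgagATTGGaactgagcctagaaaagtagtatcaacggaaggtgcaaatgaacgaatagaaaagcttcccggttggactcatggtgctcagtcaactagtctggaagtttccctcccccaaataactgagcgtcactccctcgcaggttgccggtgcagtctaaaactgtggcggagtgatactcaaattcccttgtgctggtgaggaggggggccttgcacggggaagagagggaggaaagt

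Between the starts of COL4A1 and COL4A2 lie 126 bases, all of them printed, with 80.2% G or C, 1 GC box and 1 CCAAT box. The starts of COL4A4 and COL4A3 are 418 bases apart, and the 250 printed bases next to COL4A3 hold 2 GC boxes, no CCAAT box and 66.4% G or C. The starts of COL4A6 and COL4A5 are 379 bases apart, and the 250 bases next to COL4A5 hold 2 CCAAT boxes, no GC box and 51.2% G or C. Among the 58 members with a promoter in the RefSeq table, a GC box stood in 32 (55.2%), against 45.0% of 35116 promoters of the same length. A CCAAT box stood in 14 (24.1%), against 34.6%.

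Before the results, the quality of the arrays bears on how they are read. Both arrays of a line lay on 1 slide and were scanned together, so line, slide and scan cannot be told apart. The HCT116 array with miR-891b stood apart: 10.5% of its gene spots fell in areas where spots dim on the other arrays gave stray signal, against 2.20% with NC1 in HCT116, 0.021% with NC1 in A549 and 1.83% with miR-891b in A549. The dimmest signal that counts as above background was also higher on it, at 6.49, against 4.69, 4.82 and 4.86 on those arrays. Genes called dim on it, and bounds that use it, are to be read with this in mind. The probes of ITGAL, ITGB6, ITGB7 and LAMC1 lay in such an area on HCT116 miR-891b, and those of COL4A6 and COL18A1 on A549 miR-891b. Repeated spots of a probe differed little: the SD of a log2 change between spots had a median of 0.061 in HCT116 and 0.071 in A549. Different probes of a gene differed more, with a median SD of 0.14 over 4344 genes in HCT116 and 0.18 over 4899 in A549. For members with several measured probes it was 0.067 in HCT116 (11 members) and 0.35 in A549 (13 members). These spreads are technical and hold no variation between cultures. Line markers were checked on NC1, where all 5 A549 markers measured in both lines were over 2-fold higher in A549, and all 4 HCT116 markers were over 2-fold lower. Some of these markers also differed between miR-891b and NC1: AKR1B10, an A549 marker, by 4.47 in HCT116, and in A549 KRT81 and ALDH3A1, A549 markers, by -1.64 and -1.17 and CLDN3, an HCT116 marker, by 1.03. Their part in the results below was not tested.

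Of the 82 genes, 46 were well above background on all 4 arrays, by the mark that the scanner software sets, and 21 were on none. The share over all gene names was 41.7% on all 4 arrays and 41.6% on none. COL1A1, the alpha 1 chain of collagen I, was seen on all 4 arrays, whereas its partner chain COL1A2 was well above background on none. COL3A1, COL2A1, COL11A1 and COL15A1 were also dim throughout, as were ITGB3, the beta chain of the platelet and vitronectin receptors, ITGB6, a beta chain of epithelia that pairs with ITGAV, and LAMA1. Seen on both A549 arrays and neither HCT116 array were COL4A1, COL21A1, COL26A1, ITGA1 and ITGB2, or 5 of 82, beside 5.09% of all names. COL26A1 was near the background limit, at -3.26 (NC1) and -5.14 (miR-891b) in HCT116, both dim, and at -3.33 and -3.42 in A549. COL17A1 and ITGAX were seen on both HCT116 arrays alone, 2 of 82 beside 1.5%. Another mix of arrays was seen for 8, COL24A1, COL4A3, ITGA11, ITGA2B, ITGA4, ITGAL, LAMA2 and LAMB4. Dim probes set only an upper limit and do not show that a gene is silent.

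**Figure D1:**
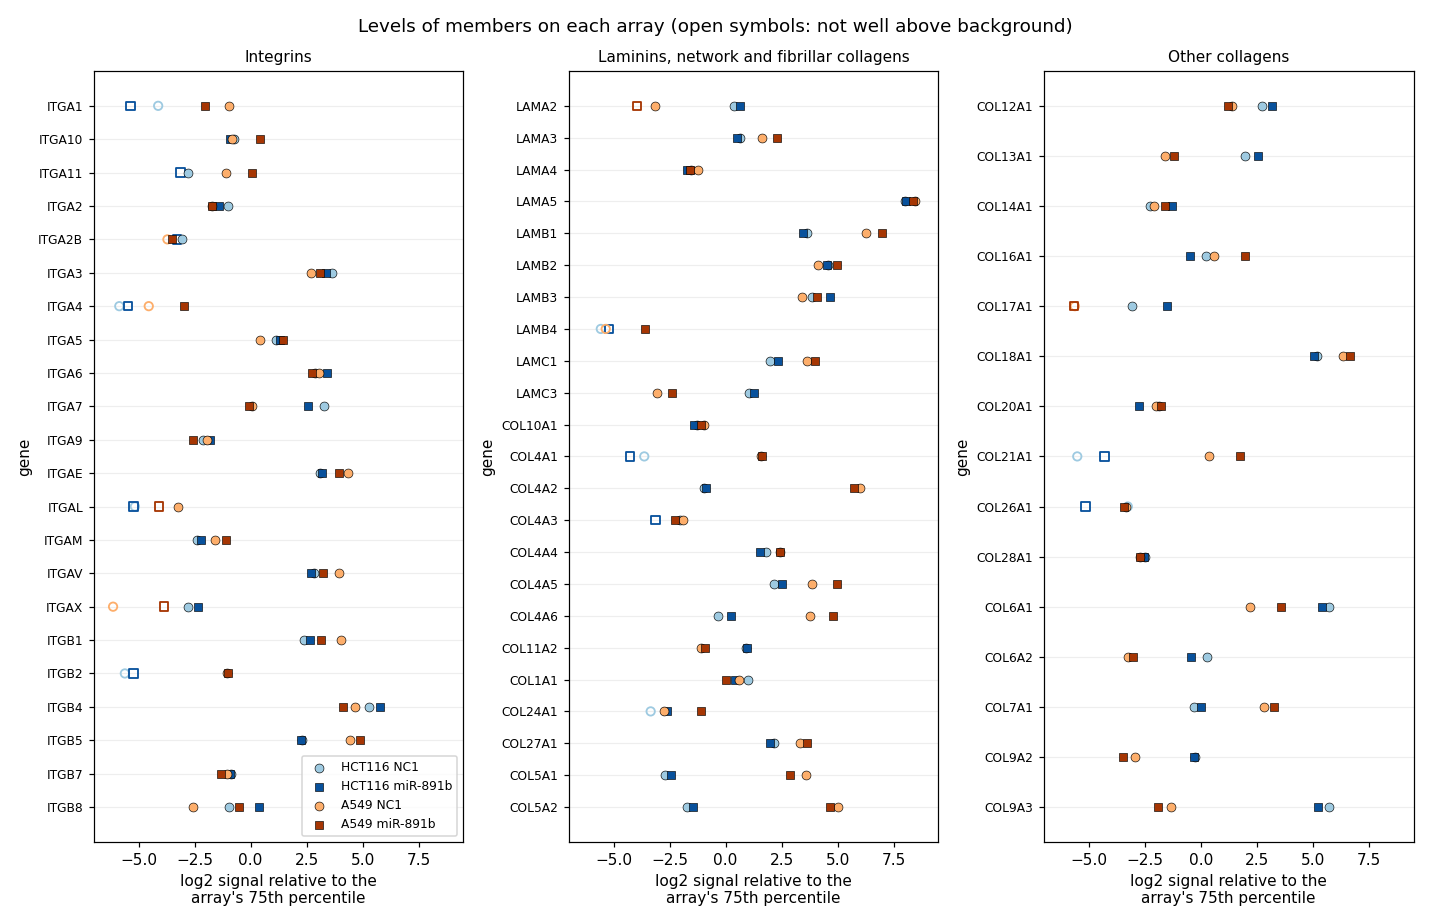
Level of named genes seen on at least 1 array (log2 signal relative to the array's 75th percentile, horizontal axis) on the 4 arrays, with circles for NC1, squares for miR-891b, blue for HCT116 and orange for A549. Open symbols are not well above background, and COL4A2, COL5A1, COL5A2 and COL9A3 show a wide gap between blue and orange.

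More of these genes differed by 2-fold or more between the cell lines than between miR-891b and NC1 within a line. Among the 49 members measured on both NC1 arrays, 16 were 2-fold or more higher in A549 and 11 were 2-fold or more lower, beside 11.1% and 16.2% of all 19217 genes measured there (27.3% either way). On the miR-891b arrays the counts were 16 higher and 10 lower of 47, beside 11.4% and 20.7%. In the additive limma model, which takes the transfections as the only replication of the line, 32 of 58 tested members (55.2%) passed a Benjamini-Hochberg adjusted p of 0.05, 19 higher and 13 lower in A549, beside 31.9% of 22710 genes. The tested genes had to be well above background on only 2 arrays, so a gene seen in 1 line alone entered through that line. The 55.2% is therefore no measure of how often members differ. Of the 46 members well above background on all 4 arrays, 24 passed, and the share over all genes of that kind is not given here. The model has 1 residual degree of freedom. With 1 array per group, its residual is how far the change with miR-891b differs between the lines, with the spread pooled in part over genes. Its SEs and p-values rest on that and do not measure variation between cultures.

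Collagen IV, of the basement membrane, differed between the lines, with higher values in A549. COL4A2, which pairs with COL4A1 in the common collagen IV helix, read at chr13:111165261-111165320 of hg19, had levels of -0.95 and -0.90 on the HCT116 NC1 and miR-891b arrays, and 6.0 and 5.72 on the A549 arrays. Both A549 values lay above both HCT116 values, and on NC1 the gap was 124-fold (limma line effect 6.79 ± 0.24 SE, adjusted p = 0.000843). COL4A1 was not well above background on either HCT116 array and stood at 1.56 and 1.61 in A549, which makes it at least 30.4-fold higher there, taking the mean of the A549 arrays against, on each HCT116 array, the dimmest signal that counts as above background or the probe's own signal if higher (other "at least" values follow this rule, within a line with 1 array on each side). COL4A6, of the collagen IV found in specialised epithelia, stood at -0.33 and 0.22 in HCT116 against 3.78 and 4.81 in A549 (line effect 4.35 ± 0.26, limma adjusted p = 0.00159), and on the NC1 arrays, both outside such areas of stray signal, the gap was 4.11. Its head-to-head partner COL4A5 stood at 2.17 and 2.51 against 3.85 and 4.95 (2.06 ± 0.30, limma adjusted p = 0.0130). COL4A4 was 0.61 higher in A549 on NC1 and COL4A3 0.11 higher, both under 2-fold. All 6 network collagens measured on both NC1 arrays, COL10A1 among them, thus had higher values in A549, 3 of them by 2-fold or more, with a median of 1.14, beside -0.10 over all genes. The size of such gaps depends on the processing. With a background correction that adds an offset of 50 (normexp), followed by quantile normalization, the COL4A2 gap on NC1 was 5.41, and with the mean over probes that of COL4A6 was 2.48. The mean over probes takes in every probe of a gene, dim ones included, and the other COL4A6 probe was dim on every array.

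The fibrillar collagens split. COL5A1 and COL5A2, the chains of collagen V, which seeds and limits the width of collagen I fibrils, were both much higher in A549. COL5A2 stood at -1.70 and -1.44 in HCT116 and at 5.00 and 4.66 in A549, a 104-fold gap on NC1 (limma 6.40 ± 0.27 SE, adjusted p = 0.000927). COL5A1 stood at -2.71 and -2.42 against 3.60 and 2.85, a 79.5-fold gap (5.79 ± 0.34, limma adjusted p = 0.00156). With normexp the gaps of COL5A2 and COL5A1 on NC1 were 4.88 and 3.69 on the log2 scale. COL11A2, a chain of cartilage collagen XI, went the other way, with 0.90 and 0.94 in HCT116 and -1.08 and -0.91 in A549. Its line difference on NC1 was -1.98, with -2.85 and -0.31 at its other probes, the last short of 2-fold. COL27A1 was 1.15 higher in A549 on NC1, with 0.30 and 1.05 at its other probes. COL1A1 stood at 1.02 and 0.42 in HCT116 and at 0.60 and 0.01 in A549, a line difference on NC1 of -0.42 that did not reach 2-fold.

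Several other collagens were higher in HCT116. COL9A3, a chain of cartilage collagen IX, read at chr20:61472271-61472330 of hg19, stood at 5.73 and 5.22 in HCT116 and at -1.34 and -1.91 in A549, 134-fold lower in A549 on NC1 (limma -7.10 ± 0.23 SE, adjusted p = 0.000757). COL9A2, its partner, differed by -2.69 on the log2 scale. COL6A1 and COL6A2 form collagen VI, a beaded filament near the cell surface, together with COL6A3, which was dim on every array. COL6A1 stood at 5.71 and 5.43 in HCT116 and at 2.18 and 3.58 in A549 (limma -2.69 ± 0.47, adjusted p = 0.0212), and COL6A2 at 0.28 and -0.41 against -3.23 and -3.03 (-3.07 ± 0.32, limma adjusted p = 0.00563). COL18A1, the source of endostatin, was instead higher in A549 by 1.15 on NC1 (5.21 and 5.05 against 6.37 and 6.68). COL13A1, a collagen that spans the cell membrane, stood at 1.98 and 2.56 against -1.61 and -1.18, 12.0-fold lower in A549 on NC1. COL17A1, the hemidesmosome collagen, was seen only in HCT116, at -3.06 and -1.50, which makes it at least 3.17-fold higher there. With normexp the NC1 differences were -5.14 for COL9A3, -1.08 for COL6A2 and -2.01 for COL13A1, past 2-fold in the same direction but smaller. COL7A1 and COL21A1 went the other way. COL7A1, which anchors the epidermal basement membrane, was 8.62-fold higher in A549 on NC1 (-0.30 and -0.00 against 2.81 and 3.26), or 2.16 on the log2 scale with normexp, and COL21A1, seen only in A549 at 0.35 and 1.76, was at least 21.0-fold higher there.

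Among the laminins, LAMB1 and LAMC1, the beta and gamma chains of laminin-511, were higher in A549. The LAMB1 levels are those given with its probe above, a gap of 2.61 on NC1 (limma 3.05 ± 0.32 SE, adjusted p = 0.00571). A second LAMB1 probe gave 0.59, of the same sign, and the mean over probes, which includes a probe dim on every array, was 1.36. LAMC1 stood at 1.99 and 2.35 against 3.65 and 3.99 (1.65 ± 0.23, limma adjusted p = 0.0120), and on the NC1 arrays, both outside such areas of stray signal, the gap was 1.67. LAMA3, the alpha chain of laminin-332, stood at 0.62 and 0.53 against 1.64 and 2.31 (1.40 ± 0.30, limma adjusted p = 0.0323). LAMA5, the alpha chain of laminin-511, stood at 8.02 and 8.03 against 8.47 and 8.35, a gap of 0.45 on NC1, under 2-fold. Its other probe gave -0.32, of the opposite sign. LAMC3 and LAMA2, chains of less widespread laminins, were higher in HCT116. LAMC3 stood at 1.02 and 1.26 in HCT116 and at -3.06 and -2.40 in A549, 16.9-fold lower on NC1 (-3.87 ± 0.25, limma adjusted p = 0.0019). LAMA2 stood at 0.36 and 0.64 in HCT116 and at -3.14 on A549 NC1, and was dim on A549 miR-891b. With normexp the NC1 differences were -1.45 for LAMC3 and -1.14 for LAMA2. That of LAMA3 was 0.70, short of 2-fold.

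Among the integrins, the line differences on NC1 of the 11 measured alpha chains ran from -3.23 to 1.70 and the 5 measured beta chains from -1.62 to 2.16, beside -7.07 to 6.95 over all measured members. ITGB5, a beta chain that joins ITGAV in a vitronectin receptor, stood at 2.29 and 2.23 in HCT116 and at 4.45 and 4.90 in A549 (limma 2.41 ± 0.26 SE, adjusted p = 0.00631). ITGAV itself stood at 2.81 and 2.70 against 3.93 and 3.22, and the line effect did not pass (limma adjusted p = 0.0900). ITGB1, the beta chain shared by most matrix receptors, stood at 2.36 and 2.66 against 4.04 and 3.15 (limma adjusted p = 0.0941), so the groups did not overlap but the gap was 1.68 on NC1 (1.03 with the mean over probes) and 0.49 with miR-891b. That mean includes an ITGB1 probe dim on every array. ITGA7, a laminin receptor known from muscle, stood at 3.28 and 2.58 in HCT116 and at 0.05 and -0.05 in A549 (-2.93 ± 0.27, limma adjusted p = 0.0043). ITGA1, a collagen receptor chain, and ITGB2, the leukocyte beta chain, were seen only in A549, at least 3.58-fold and 4.93-fold higher there, and ITGAX, a leukocyte alpha chain, only in HCT116, at least 2.53-fold higher. ITGAE, known from lymphocytes within epithelia, stood at 3.09 and 3.18 against 4.35 and 3.96 (1.02 ± 0.26, limma adjusted p = 0.0485).

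The chains of the epithelial laminin receptors were seen in both lines. ITGA3 stood at 3.66 and 3.35 in HCT116 and at 2.71 and 3.12 in A549. ITGA6, which joins ITGB4 in hemidesmosomes, stood at 2.88 and 3.43 against 3.05 and 2.75. ITGB4 stood at 5.27 and 5.79 against 4.68 and 4.13. Their differences on NC1 were -0.95, 0.17 and -0.59, none 2-fold. ITGA2, a collagen receptor chain, stood at -1.02 and -1.42 against -1.73 and -1.74, also under 2-fold. ITGB8 was lower in A549, with a difference of -1.62 on NC1 (limma -1.25 ± 0.29 SE, adjusted p = 0.0407), but with normexp the NC1 difference was -0.45, short of 2-fold.

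**Figure D2:**
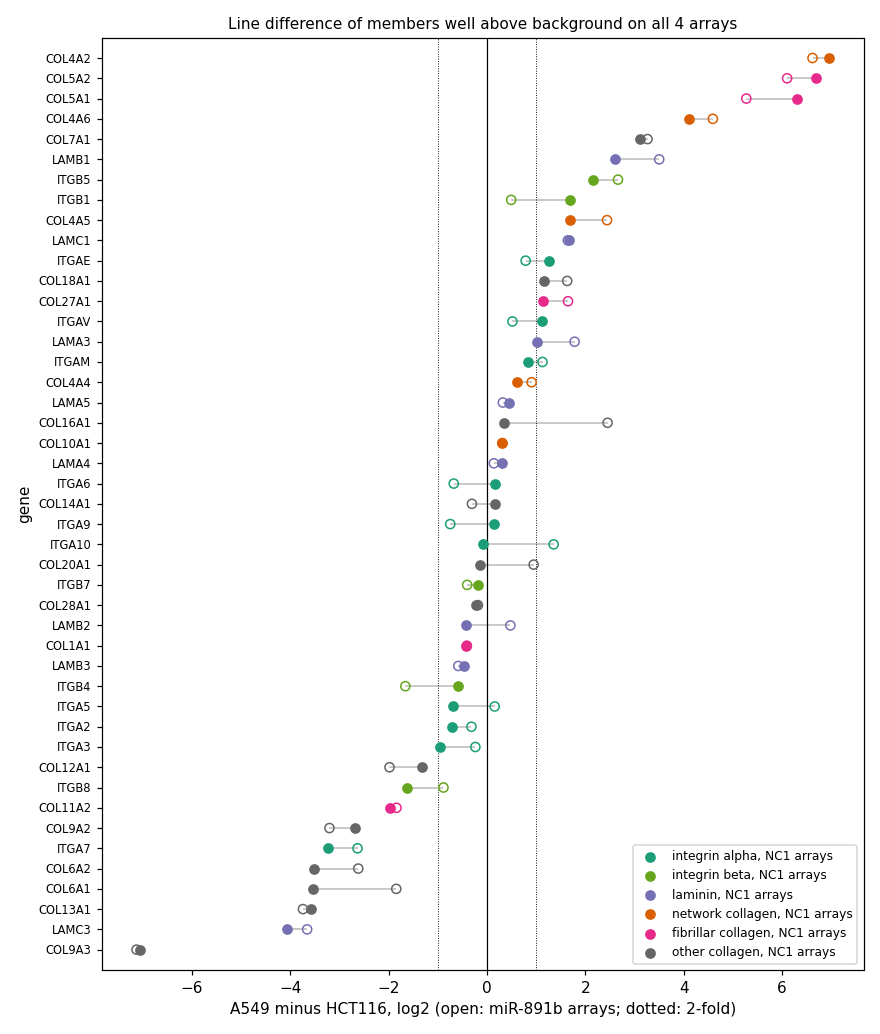
Difference in level between A549 and HCT116 (log2, horizontal axis) for named members seen on every array, filled for the NC1 arrays and open for the miR-891b arrays, with dotted lines at 2-fold. COL4A2 lies at 6.95 and 6.62 and COL9A3 at -7.07 and -7.13, while ITGB1 lies at 1.68 and 0.49.

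In HCT116, few of these genes differed between miR-891b and NC1. Of 49 measured members, 2 were higher by 2-fold or more and 0 were lower, beside 1.16% higher and 0.843% lower of 19104 genes. The members' median change was 0.037, beside -0.041 over all genes. ITGB8, a beta chain that joins ITGAV to activate latent TGF-beta, was read at chr7:20455137-20455196 of hg19 and stood at -0.96 on HCT116 NC1 and 0.35 on HCT116 miR-891b, 2.49-fold higher. COL17A1 stood at -3.06 and -1.50, 2.95-fold higher, at levels near the limit of what counts as above background, and its change was 0.23 with normexp. Just short of 2-fold lay COL14A1, a collagen that coats fibrils, with a change of 0.96, and LAMB3, a chain of laminin-332, at 3.87 against 4.65, a change of 0.78. At the other end the changes were -0.90 for COL20A1, -0.73 for COL16A1 and -0.70 for ITGA7. COL4A3 was dim on HCT116 miR-891b and stood at -2.02 on NC1, at least 2.15-fold lower, which is outside the count because only 1 of its arrays measured it.

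In A549 the spread of changes was wider, with an SD over members of 0.70, beside 0.49 in HCT116; over all genes it was 0.61 and 0.38. Of 54 measured members, 10 were higher by 2-fold or more and 1 was lower, beside 4% higher and 5.57% lower of 21336 genes (9.58% in either direction). The median of the members was 0.18, beside -0.059 over all genes. The 10 were 4 integrins (ITGB8, ITGA10, ITGA11, ITGA5) and 6 collagens (COL4A5, COL4A6, COL6A1, COL16A1, COL21A1, COL24A1). Without probes in areas of stray signal the count was 9, and COL4A6, whose spot lay in such an area (10.3% of dim neighbours on A549 miR-891b), was the one left out. Each value rests on 1 array per group, so there is no replicate check.

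Of the integrins, ITGB8 stood at -2.59 with NC1 and -0.53 with miR-891b, 4.16-fold higher. No other member passed 2-fold alike in both lines, and with the normexp correction it stayed short of 2-fold in both (0.66 in HCT116 and 0.62 in A549). ITGA10 and ITGA11, alpha chains that bind collagen together with ITGB1, stood at -0.84 against 0.42 and at -1.08 against 0.06, 2.39-fold and 2.20-fold higher. ITGA5, the alpha chain of the classic fibronectin receptor, stood at 0.42 against 1.45, 2.04-fold higher. Under that correction the changes of ITGA10, ITGA11 and ITGA5 were 0.55, 0.54 and 0.80. In the other direction ITGA1, which binds collagen too, stood at -0.97 against -2.03, 2.08-fold lower, and did not reach 2-fold in 3 of 8 alternatives, with -0.35 under normexp. Their shared partner ITGB1 stood at 4.04 against 3.15, short of 2-fold (-0.89, with an SD of 0.060 over 10 spots of the probe), and ITGAV at 3.93 against 3.22 (-0.71, SD 0.116 over 10 spots). In HCT116 the same spots gave 0.29 ± 0.14 for ITGB1 and -0.11 ± 0.079 for ITGAV.

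Of the collagens, COL4A5 stood at 3.85 on A549 NC1 against 4.95 with miR-891b (2.15-fold higher) and COL4A6, read from the other strand of the same start region, at 3.78 against 4.81 (2.04-fold higher). With the mean over its probes, including the one dim on every array, COL4A6 was at 0.65, short of 2-fold. In HCT116 the values of the pair were 0.34 and 0.54, below 2-fold. For COL4A1 and COL4A2, from another pair, they were 0.05 and -0.28 in A549, and for COL4A4 and COL4A3, from the remaining pair, 0.035 and -0.36. COL6A1 stood at 2.18 against 3.58 (1.40 higher, 2.64-fold) while COL6A2 stood at -3.23 against -3.03 (0.20). COL16A1, which lies beside larger fibrils, stood at 0.58 against 1.97 (1.39 higher), but its second measured probe gave 0.25 and the mean over probes 0.82, so the size of its change depends on the probe. COL21A1 stood at 0.35 against 1.76 (2.65-fold) and COL24A1, a fibrillar chain, at -2.73 against -1.11 (3.07-fold), near the background limit on NC1 and at 0.34 under normexp. The fibrillar chains COL1A1, COL5A1 and COL5A2 gave -0.59, -0.75 and -0.33 and COL27A1 gave 0.32, all short of 2-fold.

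No laminin reached 2-fold in A549 with the scaling used here, and 7 of the 9 measured chains had positive changes, with a median of 0.66, beside 44.4% positive and -0.059 over all genes. For laminin-332, the laminin of epithelial hemidesmosomes, LAMA3 stood at 1.64 against 2.31 and LAMB3 at 3.39 against 4.07, changes of 0.66 and 0.67. In HCT116 the values were -0.10 and 0.78. For laminin-511, the A549 values were 0.71 for LAMB1 (0.098 at its second measured probe, and up to 1.11, past 2-fold, with normexp), 0.34 for LAMC1 and -0.12 for LAMA5. A second LAMA5 probe gave 0.55 in A549, and LAMA3 is also among the members whose measured probes disagreed in sign, so those signs depend on the probe. In all, measured probes of a gene gave opposite signs in 7 of 13 members with several such probes in A549 (COL11A2, COL20A1, COL27A1, COL5A1, LAMA3, LAMA4, LAMA5) and in 3 of 11 in HCT116 (COL11A2, LAMA5, LAMB2). The laminin median stayed between 0.66 and 0.79 over the other scalings of the arrays, which keep the probe chosen for each gene. With the mean over probes the A549 change was 0.18 for LAMA3 and 0.12 for LAMB1, while LAMB3 and LAMC1 have 1 probe each. For LAMB1 that mean includes a probe dim on every array. The laminin median with the mean over probes is not given here, so its size may depend on the probes.

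The medians of the remaining groups lay close to 0 in A549: -0.05 for integrin alpha chains, -0.10 for beta chains, 0.035 for network collagens and -0.08 for fibrillar collagens, and each of these except the network collagens turned sign under at least 1 other scaling. The other collagens had a median of 0.26 over 14 measured genes. In HCT116 the medians were 0.088, 0.29, 0.052 and 0.037 for these groups, with 0.13 for laminins and -0.046 for the other collagens, and those of the integrin alpha chains and the other collagens turned sign under another scaling.

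**Figure D3:**
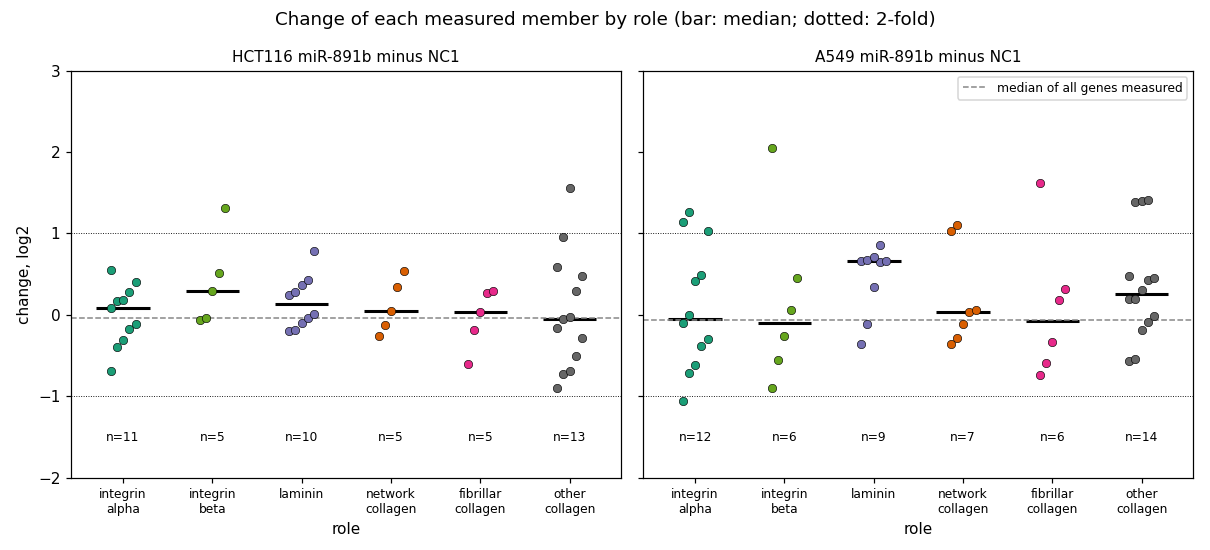
Change in level with miR-891b (log2, vertical axis) of each measured gene by group in HCT116 (left) and A549 (right), with bars at group medians, dotted lines at 2-fold and a dashed line at the median of all genes. In A549 the laminin points gather near their median of 0.66, while no laminin lies past 2-fold.

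Over the 46 members measured on all 4 arrays, 13 had positive changes in both lines, 10 negative in both and 23 opposite, so 50% had the same sign, beside 54.9% of 18061 genes. The comparisons share no array. Only ITGB8 was 2-fold higher in both, beside 29 of all 18061 genes, and 0 members were 2-fold lower in both, beside 16. In the additive limma model for miR-891b over both lines, 0 of 58 members and 0 of 22710 genes passed an adjusted p of 0.05, the smallest adjusted p being 0.793. At an unadjusted p of 0.05, 7 members and 1214 genes (5.35%) passed. The 7 were ITGB8 (1.69 ± 0.29 SE), COL21A1 (1.31 ± 0.24), COL24A1 (1.18 ± 0.32), COL4A6 (0.79 ± 0.26), LAMB3 (0.73 ± 0.23), COL14A1 (0.72 ± 0.26) and ITGA1 (-1.15 ± 0.23). COL21A1, ITGA1 and, on HCT116 NC1, COL24A1 were dim in HCT116, so their model values include signals below the background limit.

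**Figure D4:**
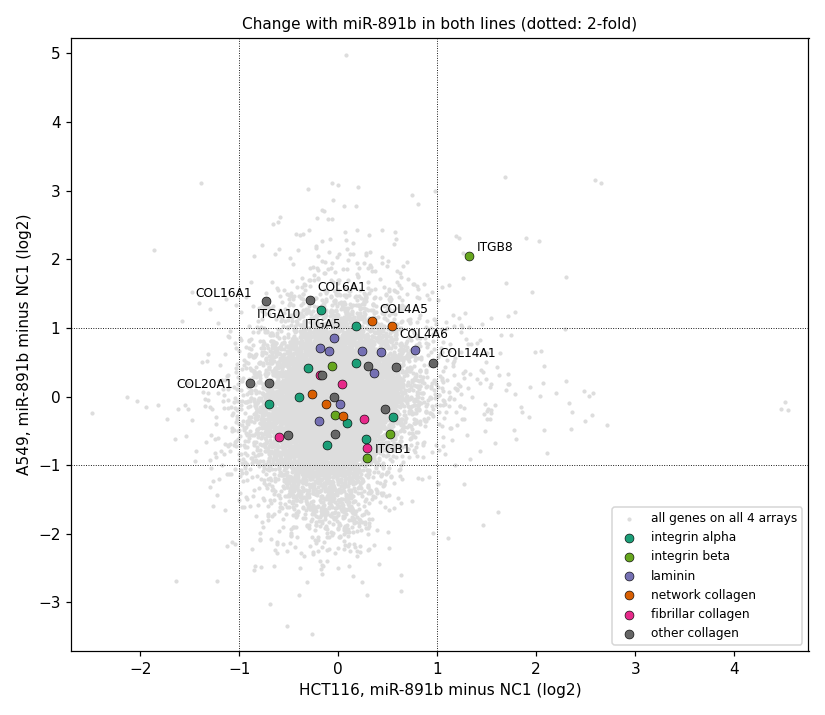
Change with miR-891b in A549 (vertical axis, log2) against HCT116 (horizontal axis, log2) for genes measured on all 4 arrays, with members coloured by group, all genes in grey and dotted lines at 2-fold. ITGB8 is the only coloured point past 2-fold in both lines, at 1.32 and 2.06, and 23 of the 46 coloured points have opposite signs.

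The chains of a complex did not all move together. Collagen IV chains COL4A5 and COL4A6 were both higher in A549 with miR-891b (2.15-fold and 2.04-fold). The COL4A6 call rests on a spot in an area of stray signal and was lost with the mean over probes. Collagen VI chain COL6A1 rose in A549 while COL6A2 was at 0.20 (1.05 with the mean over its probes, 1 of them dim, which is past 2-fold), and ITGB8 rose while its partner ITGAV was at -0.71. ITGA5, ITGA10 and ITGA11 rose while their partner ITGB1 was at -0.89. The differences between partners were not tested.

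**Figure D5:**
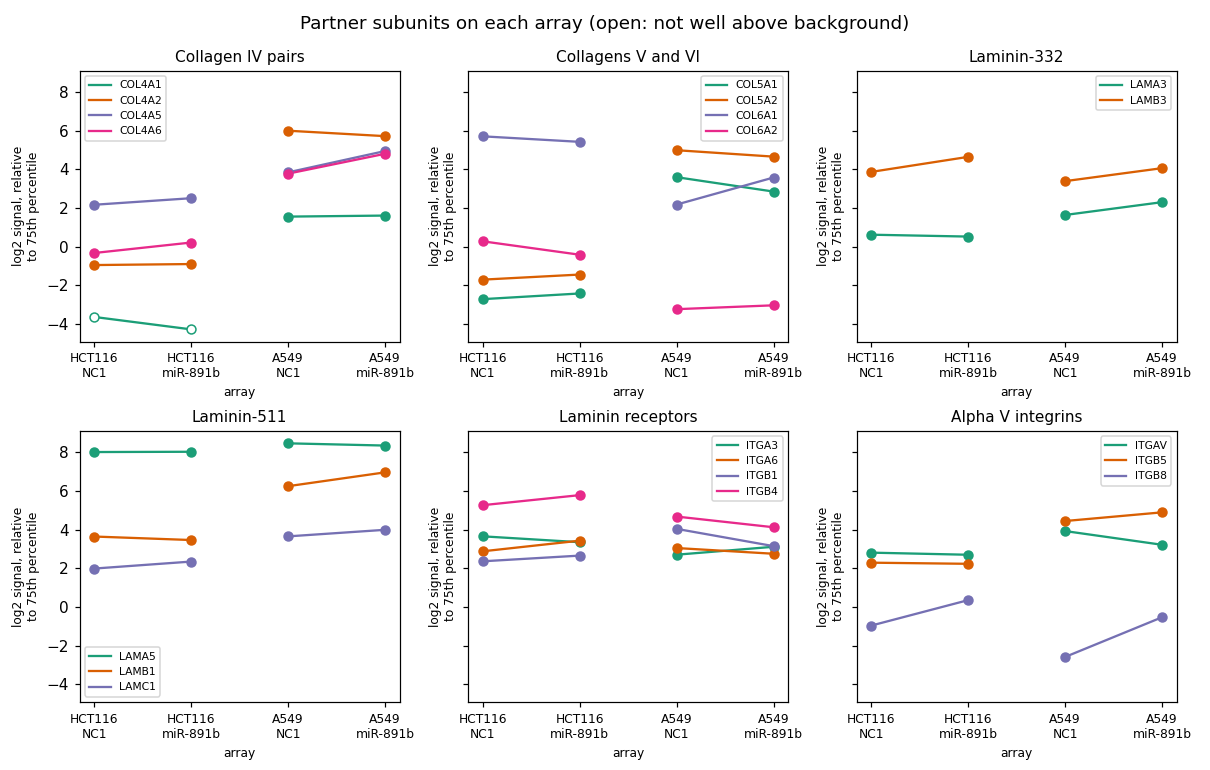
Level on each array (log2 signal relative to the array's 75th percentile, vertical axis) of chains of 6 complexes, with lines joining NC1 and miR-891b within a line and open symbols not well above background. Each gene is to be read along its own line: ITGB8 slopes upward in both lines, and ITGAV goes from 3.93 to 3.22 in A549.

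Genes that work with these chains were taken as 4 lists. Integrin adhesion machinery, the proteins that tie integrin tails to actin, had 29 measured genes in each line. In HCT116 0 passed 2-fold, and in A549 0 were higher and 2 lower, TLN2, a talin (2.18 against 1.06), and TNS4, a tensin (3.21 against 1.69). This is 6.9% of the list, beside 5.57% of all genes lower, and with normexp TLN2 was at -0.82, short of 2-fold. The list medians were -0.18 in HCT116 and -0.12 in A549, and the A549 median turned positive (at most 0.021) under 2 scalings. Of the other matrix receptors, 0 of 8 passed in HCT116 and 1 of 9 in A549, PLAUR, the urokinase receptor, at 0.93 against -0.54, on a spot in an area of stray signal (-1.47, or -0.86 with normexp).

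Of the other matrix proteins, 10 were measured on both NC1 arrays, of which 6 were 2-fold or more higher in A549 and 1 lower, beside 11.1% and 16.2% of all genes. SPP1, osteopontin, an integrin ligand, was 6.83 higher in A549 on NC1. Of the 26 list genes, 10 others were seen on the A549 but not the HCT116 NC1 array and 0 the other way. Over all 43317 gene names the counts were 3128 and 1437. With miR-891b, 1 of 9 was higher in HCT116, SPP1, at -0.74 against 0.70, beside 1.16% of all genes, and with normexp its change was 0.75, short of 2-fold. In A549 3 of 19 were higher, LUM, a collagen-binding proteoglycan (1.03 against 3.17), NID2, which links laminin to collagen IV (0.78 against 2.60), and TNC, tenascin C (-3.01 against -1.86), and 1 was lower, VTN, vitronectin (0.41 against -0.98), beside 4% higher and 5.57% lower of all genes. The calls of TNC and VTN were lost with normexp (0.21 and -0.71) and that of NID2 with the mean over probes (0.98).

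Collagen biosynthesis enzymes and chaperones showed a median of 0.50 in A549, where 17 of 21 changes were positive, and -0.23 in HCT116, where 17 of 22 were negative, beside 44.4% and 44.5% positive over all genes. The sign of both medians held under the other scalings. In A549 3 passed 2-fold, beside 4% of all genes higher: CRTAP (-1.39 against 0.09) and P3H1 (2.46 against 3.64), which act together in prolyl 3-hydroxylation, and PLOD3, a lysyl hydroxylase (4.51 against 5.57). With normexp CRTAP was at 0.65, short of 2-fold. In HCT116 0 passed. SERPINH1, the collagen chaperone HSP47, gave 0.11 in A549 and -0.02 in HCT116.

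The growth protocol also names fibroblast lines, whose cells are rich in collagens, so fibroblast markers are given beside these values. Of 8 markers, 2 were well above background on each HCT116 array, 4 and 5 on the A549 arrays with NC1 and miR-891b, and their summed signal relative to the 75th percentile was 0.747, 1.00, 3.06 and 9.80. DCN, FAP and OGN were dim on all 4 arrays. Of the 4 markers measured on both A549 arrays, only LUM was higher with miR-891b, by 2.14. The other 3 were lower, the lowest being THY1 at -1.04. The summed signal in A549 thus rose while most measured markers fell. The part of such cells in the result was not tested.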

How the data were processed

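Total RNA of 4 samples, 1 per group, was hybridised to 1-colour Cy3 arrays from 100 ng, per the labels. The deposited scanner files hold intensity values that Agilent Feature Extraction 11.5.1.1 background-subtracted and detrended within each array, per the file headers. Probe coordinates are on hg19. The authors' deposited table holds log2 values whose making is not given in the sources used here. They match the scale used here and served as an alternative.

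Outlier spots were left out, log2 signals were averaged per probe, and each array's 75th percentile was subtracted. Processed signals at that percentile were 54.9 (NC1) and 57.0 (miR-891b) in HCT116 and 74.8 and 74.2 in A549, and 0 spots were saturated. The number of arrays limits the precision. With 1 array per group, changes were called by size, at 2-fold or more, among genes well above background on both arrays. An additive model (line and transfection) was fitted to genes well above background on at least 2 arrays with limma 3.58.1 in R 4.3.3, with Benjamini-Hochberg adjustment over all genes, and was tested on simulated data. Those data took their spread from the fitted model and held no change that differed between the lines. They cannot show how the model does where such changes differ. Python 3.11.15, numpy 2.4.6 and pandas 2.3.3 did the rest. Scaling, background correction, probe choice, dim-probe filter, fold threshold, stray areas and the authors' table were varied.

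Members and lists were chosen with earlier results of these data known. Named genes were the chains of textbook complexes, the members past 2-fold with miR-891b, those with the widest line differences or bounds, and the list genes past 2-fold. Other members, and SERPINH1, were named after their values were seen. Of 115 list genes, 110 were found under their names. Some items that these rules select are counted with their group and are not reported by name.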

Additional observations from a re-analysis of the deposited data

Results flagged for a closer look

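For 3 genes past 2-fold in A549, the value in HCT116 had the opposite sign without reaching 2-fold. COL16A1 was at -0.73 in HCT116 and 1.39 in A549, COL6A1 at -0.29 and 1.40, and ITGA10 at -0.17 and 1.26. Group medians of opposite sign in HCT116 and A549 included 0.29 and -0.10 for integrin beta chains, -0.23 and 0.50 for collagen biosynthesis, and -0.11 and 0.31 for other matrix proteins. Those of the integrin beta chains rest on 5 and 6 genes, and the A549 median was 0.0033 under another scaling, so its sign is not stable. The differences between the lines were not tested, since each group has 1 array.

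Among probes not used for their gene, only those above background with miR-891b and dim with NC1 were searched for. In A549 these were a COL28A1 probe (level -2.25) and a LAMA4 probe (-3.59). In HCT116 they were 2 other LAMA4 probes (-2.07 and -1.78), on the array with more stray signal. Unused probes of COL20A1 and LAMA3 went the other way in HCT116, above background with NC1 (-2.47 and -2.96) and dim with miR-891b.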

How the results depend on the processing

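Within a line no paired analysis was possible because each group has 1 array and the labels give no replicate numbers. For the same reason no array could be left out. Across the lines the additive limma model pairs miR-891b with NC1, with the line as its only block. No named gene past 2-fold changed sign in the alternatives run. Counts of members are given here beside the share over all genes in brackets. Of members higher in HCT116 (2 of 49), there were 0 with normexp and quantile normalization (0.141%). With all probes of a gene averaged, dim ones included, there were 5 of 49 (1.58%). There were 4 of 82 without a filter on dim probes (6.44%) and 1 of 46 among genes above background on all 4 arrays (0.952%). At 1.5-fold there were 4 of 49 (3.91%) and at 3-fold 0 (0.356%). Of members lower there (0), 1 of 49 was called with quantile normalization (0.984%), 3 of 82 with no filter (3.31%) and 5 of 49 at 1.5-fold (5.65%). The HCT116 median was 0.27 with no filter. In A549, 16 of 54 were higher at 1.5-fold (11.1%) and 2 of 54 at 3-fold (1.05%). The 1 lower member became 0 with the 75th percentile over detected probes (4.29%), median scaling (4.79%), normexp (1.95%), all 4 arrays (5.82%) and 3-fold (1.53%). It became 3 of 82 with no filter (7.11%) and 6 of 54 at 1.5-fold (15.3%). The A549 median was 0.288 with the percentile over detected probes, 0.0969 with normexp and 0.0138 with no filter. The line median on NC1 was 0.271 with that percentile, 0.236 with median scaling, 0.0505 with quantile normalization, 0.0197 with normexp and -0.0958, of the opposite sign, with no filter. The cause was not tested. The percentile over detected probes moved the median of all genes by 0.104 in A549 and 0.122 between lines. With no filter the median of all genes was -0.40 between lines on NC1, 0.197 in HCT116 and -0.018 in A549. The limma counts stayed within 1.5 times, 0 for miR-891b in every setting and 24 to 33 for the line. With normexp the changes of COL17A1, COL24A1 and ITGA1 were 0.23, 0.34 and -0.35.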
